A study of Mus musculus with 8 samples.

Results

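Neutrophil granule genes were described in bone marrow derived macrophages, which are mouse marrow cells cultured so that they become macrophages. The 10 genes were chosen by symbol, as the calprotectin genes S100a8 and S100a9, the secondary (specific) granule genes Ltf, Camp, Ngp and Lcn2, and the primary (azurophil) granule genes Mpo, Elane, Prtn3 and Ctsg. All 10 were found among the 55421 genes of the deposited table. RNA had been sequenced at day 7 of differentiation in 4 libraries labelled Baf60a KO and 4 labelled WT, and all 8 had been through the same differentiation. The series title names C57 mice, and Baf60a is the product of Smarcd1, one of 3 paralogous subunits of BAF chromatin remodellers. The sources used here do not state the deleted part of the gene, the cells that lost it, any Cre driver, the age of the mice or whether each library is a mouse of its own. The p-values therefore cover only the variation among these libraries, and some of it may be technical.

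Neutrophils store antimicrobial proteins in granules that form in sequence as the cell matures in the marrow. Azurophil granules arise at the promyelocyte stage and hold myeloperoxidase and serine proteases, and specific granules arise later and hold lactoferrin, the cathelicidin precursor and lipocalin-2. S100a8 and S100a9 form calprotectin, a calcium- and zinc-binding complex that fills the neutrophil cytosol and is also made by monocytes. The transcription factors Cebpe and Gfi1 are needed for neutrophil maturation, and Smarcd2, the paralog of Smarcd1, is required for specific granules in mice and humans.

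The cultures carried the macrophage markers that the label implies, since the summed level of 11 macrophage markers lay between 4130 and 4254 TPM in Baf60a KO libraries and between 3146 and 3764 TPM in WT libraries. TPM is a length-corrected transcript abundance that sums to 1000000 in each library, so the read depth of a library is unknown. Transcripts of 10 stromal markers were abundant as well, at a summed 4159 to 4475 TPM in Baf60a KO and 3500 to 3852 TPM in WT libraries. Smarcd1 was at 10.79, 10.27, 10.85 and 9.91 TPM in Baf60a KO replicates 1 to 4, against 16.25, 14.29, 14.76 and 14.01 TPM in WT replicates 1 to 4, and it fell (log2 fold change -0.47, SE 0.061, limma adjusted p = 0.00756). Its mean in Baf60a KO was 0.705 of that in WT, and because the deleted part is unknown here, this level is a limited check of the deletion. Processed pseudogenes held 12.4% and 12.6% of TPM in WT replicates 3 and 4 and between 7.05% and 8.72% in the other 6 libraries.

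Promoter sequence was available for 10 of the 10 genes, as 250 bases before to 50 bases after the transcription start in RefSeq (build GRCm38.p6). The window was searched on both strands for TTNNGNAA, the core of the C/EBP recognition motif, because C/EBP factors act on this gene class. A match was present in 5 of the 6 calprotectin and secondary granule promoters and in 0 of the 4 azurophil promoters, and 40.7% of all 32851 promoters of this length held one. GAGGAA, a core of PU.1 sites, was found in 3 of the 6 and in 4 of the 4, against 28.3% of all promoters. AAATCA, part of GFI1 sites, was found in 1 of the 6 (Ltf) and in 0 of the 4, against 14% of all promoters. Such matches are letters in a window, not sites shown to be bound. The Lcn2 window (chromosome 2, 32387690 to 32387989) lay wholly within the annotated gene (32384633 to 32388252). Its C/EBP and GAGGAA matches were therefore not before the first annotated exon. The Prtn3 window (chromosome 10, 79879417 to 79879716), with 1 GAGGAA match, also lay wholly within its annotated gene (79874476 to 79883174). The bases before the first annotated exon are shown for 3 genes with a C/EBP match and for Elane, which has none, with TTNNGNAA matches in capitals:
Ngp, chr9:110419558-110419746 (+ strand): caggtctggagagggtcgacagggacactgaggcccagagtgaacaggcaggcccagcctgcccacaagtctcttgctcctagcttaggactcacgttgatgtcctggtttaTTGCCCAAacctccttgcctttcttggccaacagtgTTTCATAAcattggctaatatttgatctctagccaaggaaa
Ltf, chr9:111019042-111019270 (+ strand): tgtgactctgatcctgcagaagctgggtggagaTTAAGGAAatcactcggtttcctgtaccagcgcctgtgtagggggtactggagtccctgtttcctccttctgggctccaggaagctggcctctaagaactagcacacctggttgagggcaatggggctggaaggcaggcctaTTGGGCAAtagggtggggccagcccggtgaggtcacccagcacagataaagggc
S100a9, chr3:90695722-90695971 (- strand): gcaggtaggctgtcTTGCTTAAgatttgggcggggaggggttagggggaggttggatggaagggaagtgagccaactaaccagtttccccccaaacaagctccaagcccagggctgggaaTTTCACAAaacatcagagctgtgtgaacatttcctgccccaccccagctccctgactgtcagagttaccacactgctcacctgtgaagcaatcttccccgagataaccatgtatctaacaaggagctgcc
Elane, chr10:79886062-79886246 (+ strand): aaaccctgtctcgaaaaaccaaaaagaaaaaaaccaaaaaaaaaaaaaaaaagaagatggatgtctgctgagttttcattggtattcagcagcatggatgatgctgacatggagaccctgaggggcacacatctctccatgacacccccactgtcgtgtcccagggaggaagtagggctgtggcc

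The order of the members by level followed the classes. S100a9 was the most abundant, at a mean of 125 TPM over the 8 libraries, followed by S100a8 at 58.6 TPM. Ngp (24.7 TPM), Lcn2 (14.1 TPM), Ltf (6.44 TPM) and Camp (2.73 TPM) came next. The azurophil genes were lowest, with Prtn3 at 1.72 TPM, Mpo at 0.782 TPM, Ctsg at 0.665 TPM and Elane at 0.38 TPM. The order held within all 8 libraries for each neighbouring pair from S100a9 down to Camp, and Camp exceeded Prtn3 in 7 of 8, although the ranges over libraries overlapped from Ngp down to Prtn3. Mpo exceeded Ctsg in 5 of 8 libraries and Ctsg exceeded Elane in 5 of 8, so the order of these 3 is within their spread. Calprotectin made up 80.0% of the members' summed TPM in Baf60a KO and 76.4% in WT, while azurophil genes made up 1.63% in Baf60a KO and 1.41% in WT.

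**Figure D1:**
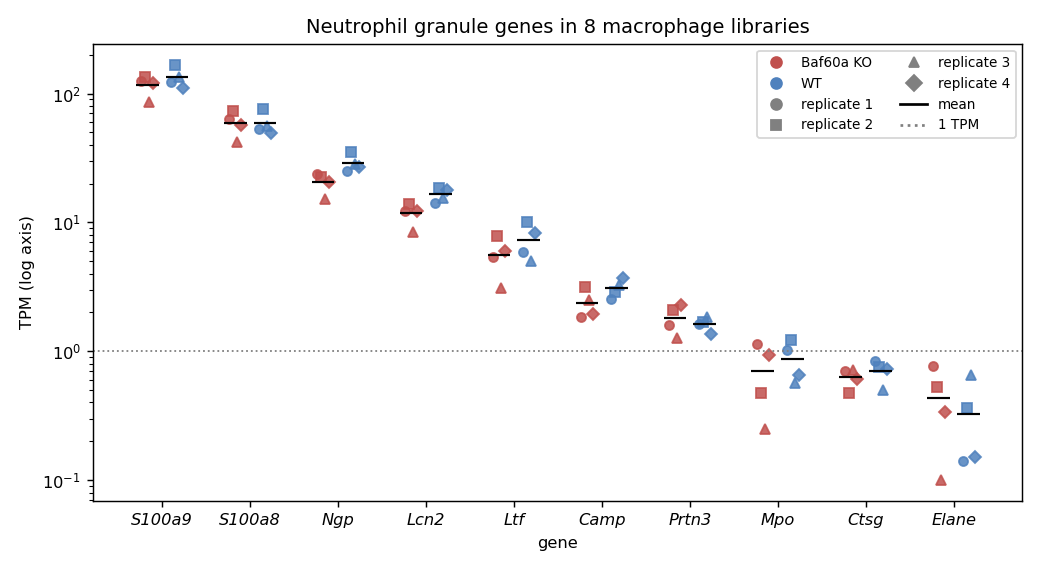
TPM of the 10 granule genes on a log axis in 4 Baf60a KO (red) and 4 WT (blue) libraries; marker shape gives the replicate number, black bars the group means and the dotted line 1 TPM. Calprotectin genes lie between 42.07 and 167.2 TPM, secondary granule genes between 1.85 and 35.1 TPM, and Mpo, Ctsg and Elane between 0.1 and 1.22 TPM.

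Differences between the groups were tested on log2(TPM + 1) after a filter, which asked for more than 1 TPM in 4 or more of the libraries and which 7 of the 10 members passed. Mpo exceeded 1 TPM in 3 libraries, and Ctsg and Elane in 0. In limma's moderated test, adjusted by the Benjamini-Hochberg method over all 13933 genes tested, 0 members rose and 0 fell at adjusted p under 0.05, where 5.61% of all genes tested passed (4.4% higher and 1.21% lower in Baf60a KO). The split over all genes, 613 higher and 169 lower, depends on the scaling, with 518 and 403 after median-of-ratios scaling, 440 and 254 after quantile normalization and 845 and 484 over protein-coding genes. Without WT replicates 3 and 4, the libraries with the higher pseudogene share, it was 201 and 171. At an unadjusted p under 0.05, 2 of the 7 members were lower in Baf60a KO, against 6.42% of all genes. The median log2 fold change of the 7 was -0.30, beside 0.027 for all genes tested, with 6 negative and 1 positive. In bulk RNA, fewer cells of a type and less RNA per cell cannot be told apart.

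The 4 secondary granule genes had the most negative log2 fold changes of the 7 members tested. Ngp, a cathelicidin-related protein of mouse specific granules (chromosome 9, 110419747 to 110423012, mm10), had 23.71, 22.58, 15.29 and 20.44 TPM in Baf60a KO replicates 1 to 4. In WT replicates 1 to 4 it had 24.91, 35.1, 28.14 and 27.07 TPM. Every Baf60a KO library was below every WT library, with means of 20.5 ± 3.73 TPM in Baf60a KO and 28.8 ± 4.41 TPM in WT (SD, n = 4 each). The log2 fold change of Ngp was -0.48 (SE 0.14, 95% interval -0.81 to -0.15) and did not pass after adjustment (limma adjusted p = 0.0934), and an exact two-sided permutation test gave p = 0.0286, the smallest that 4 against 4 allows, unadjusted.

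Lcn2, which encodes lipocalin-2, a protein that withholds iron from bacteria by binding their siderophores (chromosome 2, 32384633 to 32388252), showed a similar difference. Its level was 12.22, 13.96, 8.49 and 12.35 TPM in Baf60a KO replicates 1 to 4, and 14.25, 18.45, 15.57 and 17.74 TPM in WT replicates 1 to 4. The groups again did not overlap, though the highest Baf60a KO library (13.96 TPM) was close to the lowest WT library (14.25 TPM). The log2 fold change of Lcn2 was -0.47 (SE 0.14, 95% interval -0.79 to -0.15, limma adjusted p = 0.0915, exact permutation p = 0.0286). Among the 7 members tested these 2 were the ones without overlap, where 3.96% of all genes tested were lower and 11.9% higher in Baf60a KO without overlap, 15.8% in either direction.

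Both differences passed when TPM was rescaled over protein-coding genes, which leaves out the pseudogenes and tests 11957 genes, of which 4.05% were then called lower. Under that scaling the limma adjusted p was 0.0376 for Ngp and 0.0399 for Lcn2. Under the other 18 alternatives they stayed above the threshold, with adjusted p up to 0.191 and 0.190.

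Ltf and Camp overlapped between the groups. Ltf, which encodes the iron-binding protein lactoferrin (chromosome 9, 111019271 to 111042767), had 5.39, 7.79, 3.1 and 6.02 TPM in Baf60a KO and 5.91, 10.08, 5.02 and 8.21 TPM in WT replicates 1 to 4. Its log2 fold change of -0.35 had a wide 95% interval, from -0.93 to 0.24 (limma adjusted p = 0.483). Camp, which encodes the cathelicidin antimicrobial peptide precursor (chromosome 9, 109847379 to 109849617), had 1.85, 3.13, 2.48 and 1.94 TPM in Baf60a KO and 2.54, 2.9, 3.27 and 3.7 TPM in WT replicates 1 to 4. Its log2 fold change was -0.30 (95% interval -0.62 to 0.019, limma adjusted p = 0.252). Camp, Ngp and Ltf lie on the same chromosome, with 570 kb between Camp and Ngp and 596 kb between Ngp and Ltf. Summed over the 4 secondary granule genes, the level was 43.2, 47.5, 29.4 and 40.8 TPM in Baf60a KO and 47.6, 66.5, 52.0 and 56.7 TPM in WT replicates 1 to 4. The ratio of the mean sums, Baf60a KO over WT, was 0.721, and the highest Baf60a KO sum was just under the lowest WT sum.

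**Figure D2:**
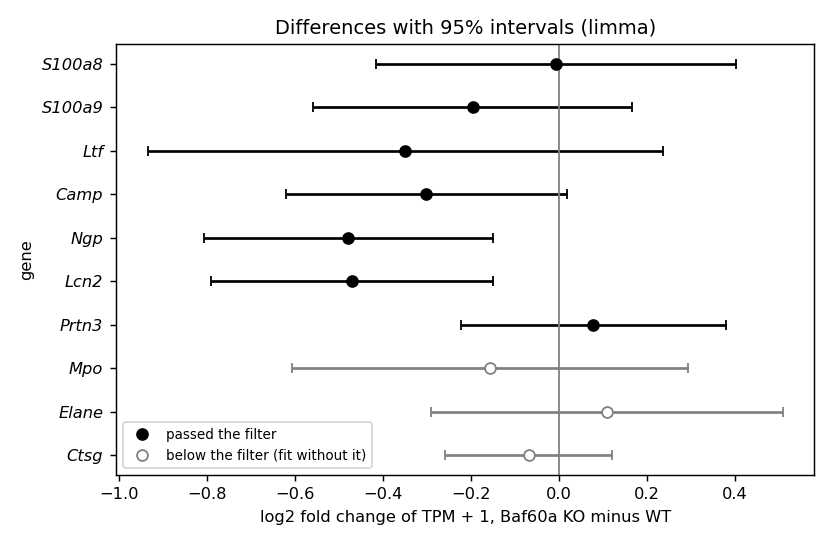
Log2 fold change of TPM + 1, Baf60a KO minus WT, for the 10 granule genes with 95% intervals from limma (4 libraries a group); open grey points are genes below the filter, from the fit without it. The intervals of Ngp and Lcn2 lie below 0 before adjustment, and the other 8 cover 0.

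Calprotectin transcripts overlapped between the groups. S100a8 (chromosome 3, 90668978 to 90670035) had 63.33, 72.84, 42.07 and 56.53 TPM in Baf60a KO and 53.49, 76.12, 55.6 and 49.2 TPM in WT replicates 1 to 4. The means were 58.7 ± 12.9 TPM in Baf60a KO and 58.6 ± 12.0 TPM in WT, with a log2 fold change of -0.0052 (95% interval -0.41 to 0.40, limma adjusted p = 0.992). S100a9 (chromosome 3, 90692632 to 90695721), which lies 22.6 kb away, had 124.52, 133.65, 86.22 and 121.38 TPM in Baf60a KO and 122.19, 167.2, 133.47 and 110.13 TPM in WT replicates 1 to 4. Its log2 fold change was -0.19 (95% interval -0.56 to 0.17, limma adjusted p = 0.530). These intervals leave room for a change in either direction, so they do not show that calprotectin was the same in both groups.

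The azurophil genes had the lowest levels of the members, and 1 of the 4 passed the filter. Prtn3, the protease proteinase 3 (chromosome 10, 79874476 to 79883174), had 1.59, 2.09, 1.26 and 2.29 TPM in Baf60a KO and 1.64, 1.69, 1.84 and 1.37 TPM in WT replicates 1 to 4. Its log2 fold change was 0.079 (95% interval -0.22 to 0.38, limma adjusted p = 0.793). Its annotated span overlaps Plppr3 on the other strand, and the sources used here do not say that strand was used in quantification. Mpo, the enzyme that makes hypochlorous acid (chromosome 11, 87793581 to 87804413), had 1.13, 0.47, 0.25 and 0.94 TPM in Baf60a KO and 1.03, 1.22, 0.57 and 0.65 TPM in WT replicates 1 to 4, and overlaps an antisense gene.

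Elane, neutrophil elastase (chromosome 10, 79886247 to 79888215), begins 3.07 kb past the end of Prtn3. It had 0.77, 0.53, 0.1 and 0.34 TPM in Baf60a KO and 0.14, 0.36, 0.65 and 0.15 TPM in WT replicates 1 to 4. Ctsg, cathepsin G (chromosome 14, 56099881 to 56102574), had 0.7, 0.47, 0.72 and 0.61 TPM in Baf60a KO and 0.84, 0.75, 0.5 and 0.73 TPM in WT replicates 1 to 4. For the 4 azurophil genes the groups overlapped, with exact two-sided permutation p of 0.514 for Prtn3, 0.514 for Mpo, 0.571 for Elane and 0.343 for Ctsg. The summed azurophil level was 3.57 ± 0.874 TPM in Baf60a KO and 3.53 ± 0.466 TPM in WT (SD, n = 4 each).

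Part of the members varied together between libraries of the same group. Baf60a KO replicate 3 was the lowest of the 8 libraries for 8 of the 10 members, and WT replicate 2 was the highest for 6 of the 10. After subtraction of the group means, S100a8 and S100a9 correlated with Pearson r of 0.97 over 8 libraries, and the 10 pairs among S100a8, S100a9, Ngp, Lcn2 and Ltf had r between 0.72 and 0.97. Pairs with Camp or Prtn3 ranged from -0.15 to 0.70. These values are descriptions over libraries that share preparation and scaling, and the grouping into 5 genes and the rest was made after the values were seen.

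Of 11835 genes with mean TPM over 1, predicted and mitochondrial genes left out, the 5 closest to S100a8 by this measure were Zfp60 (r = 0.98), S100a9 (0.97), Ice2 (0.97), Tra2b (0.96) and Tecpr2 (0.96), so 1 of the 5 was a granule member. Ngp ranked 26, Lcn2 302, Ltf 341, Prtn3 1550 and Camp 7677. Without Baf60a KO replicate 3, the log2 fold changes of Ngp and Lcn2 were -0.35 and -0.33, and without WT replicate 2 they were -0.38 and -0.42. The S100a8 value was 0.14 without Baf60a KO replicate 3 and 0.13 without WT replicate 2, with the opposite sign to that over all libraries, and it was 0.0035 without Baf60a KO replicate 4.

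**Figure D3:**
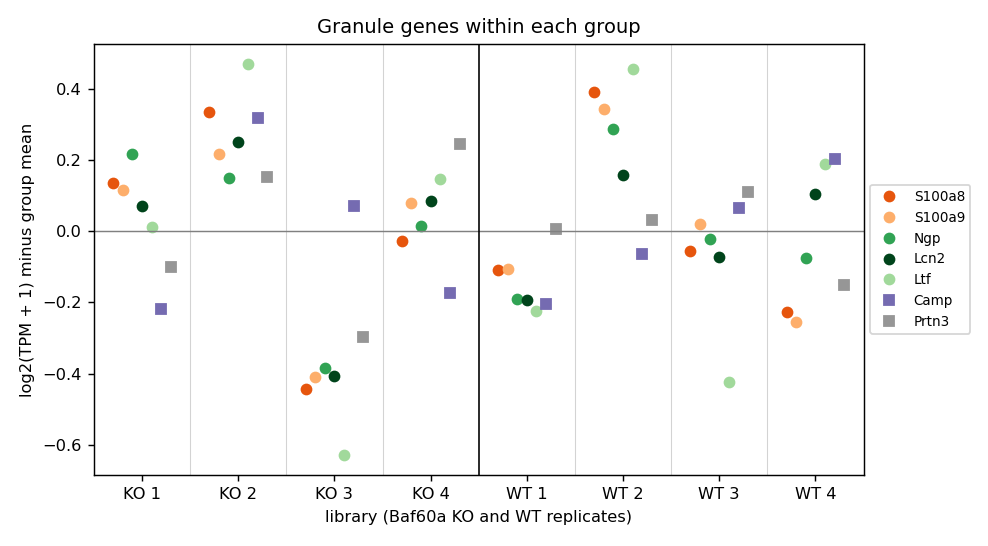
Log2(TPM + 1) minus the group mean for 7 granule genes with mean TPM over 1, by library (Baf60a KO replicates left of the black line, WT replicates right); squares mark Camp and Prtn3. In Baf60a KO replicate 3 all genes shown but Camp lie below their group mean, and in WT replicate 2 all but Camp lie above it.

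Set over S100a8 within each library, 3 of the other 6 members tested were lower in Baf60a KO without overlap and 0 were higher, where 0.452% of 13932 genes set over S100a8 in the same way were lower and 1.1% were higher. These ratios were computed after the shared variation had been seen, so they are given with no p-value. A gene that varies with S100a8 has less spread in this ratio by construction, so the members and all genes are not on an equal footing. S100a9 over S100a8 was 1.97, 1.83, 2.05 and 2.15 in Baf60a KO replicates 1 to 4, against 2.28, 2.20, 2.40 and 2.24 in WT replicates 1 to 4. Ngp over S100a8 was 0.374, 0.310, 0.363 and 0.362 in Baf60a KO, against 0.466, 0.461, 0.506 and 0.550 in WT replicates 1 to 4. Lcn2 over S100a8 was 0.193, 0.192, 0.202 and 0.218 in Baf60a KO, against 0.266, 0.242, 0.280 and 0.361 in WT replicates 1 to 4. In these 3 genes every Baf60a KO library, replicate 3 included, was below every WT library, although S100a8 and S100a9 each overlapped between the groups. The ratios of Ltf, Camp and Prtn3 overlapped.

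**Figure D4:**
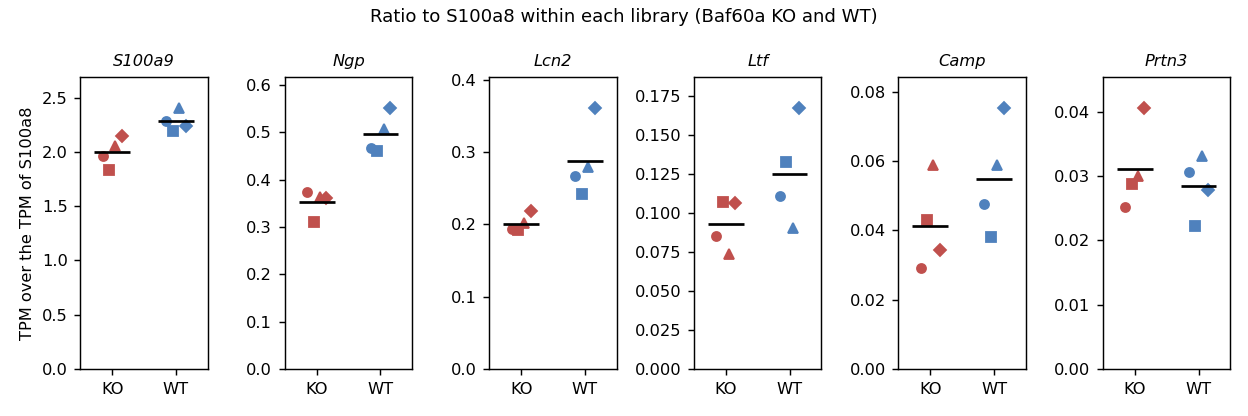
TPM of each of 6 granule genes divided by the TPM of S100a8 in the same library, in 4 Baf60a KO (left, red) and 4 WT (right, blue) libraries; axes start at 0. The ratios of S100a9, Ngp and Lcn2 do not overlap between the groups, and those of Ltf, Camp and Prtn3 do.

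The neutrophil markers Ly6g and Cxcr2 were low in both groups, and 7 of 18 neutrophil markers stayed under 1 TPM in every library. Other markers on the list, such as Csf3r and G0s2 below, were higher. Ly6g, the surface antigen used to identify mouse neutrophils, was at 1.15, 0.74, 0.0 and 0.26 TPM in Baf60a KO and 0.1, 0.22, 0.15 and 0.05 TPM in WT replicates 1 to 4. The chemokine receptor Cxcr2 was at 0.2 TPM or less in every library. Of 18 neutrophil markers 6 passed the filter, of which Wfdc21 passed through its 4 WT libraries alone and is given by its values only. Of the other 5, 1 fell, 0 rose and 4 did not pass, where 1.21% of all genes tested fell. The median log2 fold change of the 5 was -0.13. The sum over all 18 markers was 28.2 to 31.8 TPM in Baf60a KO and 32.3 to 37.6 TPM in WT libraries, without overlap. With Wfdc21 left out the sums overlapped, at 27.27 to 31.59 TPM in Baf60a KO and 30.54 to 34.95 TPM in WT libraries. G0s2 and Wfdc21 made up most of the difference over all 18. Together these 2 genes had means of 8.59 TPM in Baf60a KO and 13.2 TPM in WT. The other 16 markers summed to 20.9 ± 1.62 TPM in Baf60a KO and 21.5 ± 0.899 TPM in WT (SD, n = 4 each), and these sums overlapped between the groups. The 2 genes were singled out after their values were seen, and the part of these markers in the lower Ngp and Lcn2 values was not tested.

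The marker that fell was G0s2, an inhibitor of fat droplet lipolysis that many cells express. It averaged 7.92 ± 0.863 TPM in Baf60a KO and 11 ± 0.974 TPM in WT (log2 fold change -0.42, limma adjusted p = 0.0342). G0s2 kept its call only without WT replicate 1 or WT replicate 3 among the 8 fits that left out 1 library, with adjusted p up to 0.0987 without Baf60a KO replicate 4. Wfdc21, a small secreted protein with a whey acidic protein domain, had 0.6, 0.19, 0.97 and 0.93 TPM in Baf60a KO replicates 1 to 4, against 2.17, 2.69, 1.79 and 2.41 TPM in WT replicates 1 to 4. A gene that exceeds 1 TPM in 1 group alone had to differ to pass the filter, so its test is not used. Csf3r, the receptor for the granulocyte growth factor G-CSF, was at 7.03 ± 0.747 TPM in Baf60a KO and 7.17 ± 0.930 TPM in WT and did not pass (limma adjusted p = 0.934).

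Markers of eosinophils, mast cells and basophils were mostly close to 0. Of 9 eosinophil markers all stayed under 1 TPM in every library, with Prg3 and Il5ra at 0 throughout, and sums of 0.65 to 1.57 TPM in Baf60a KO and 0.88 to 1.6 TPM in WT libraries. Of 8 mast cell and basophil markers 7 stayed under 1 TPM in every library, and Mcpt8, a basophil protease, was at 1.87 ± 0.373 TPM in Baf60a KO and 2.33 ± 0.299 TPM in WT (limma adjusted p = 0.309). Of 10 progenitor markers 5 were tested and 0 passed by limma. The 3 at unadjusted p under 0.05 were Sox4 and Meis1, lower in Baf60a KO, and Cd34, higher. At that threshold 6.42% of all genes tested were lower in Baf60a KO. Sox4 was lower, at 22.3 ± 0.930 TPM in Baf60a KO and 26.7 ± 1.96 TPM in WT (limma adjusted p = 0.0507). Meis1 was lower as well (log2 fold change -0.18, limma adjusted p = 0.213), and Cd34 was higher (0.49, limma adjusted p = 0.169). Hoxa9 was at 9.12 ± 0.359 TPM in Baf60a KO and 9.16 ± 0.469 TPM in WT. The progenitor sums overlapped, at 39.5 to 43.7 TPM in Baf60a KO and 43.5 to 50.8 TPM in WT libraries.

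The tested markers of monocytes, erythroid cells, B cells, T and NK cells, dendritic cells and megakaryocytes did not pass. Of 8 monocyte markers 6 were tested and 0 passed by limma, with 1 (Nr4a1, higher in Baf60a KO) at unadjusted p under 0.05. The monocyte sums were 72.5 to 100.1 TPM in Baf60a KO and 65.5 to 81.8 TPM in WT libraries. Of 9 erythroid markers 3 were tested and 0 passed, with 0 at unadjusted p under 0.05; their sums ran from 4.98 to 28.5 TPM in Baf60a KO and from 6.9 to 50.8 TPM in WT libraries. For B cells 1 of 7 markers was tested and did not pass, with Igll1 at 0 throughout. For T and NK cells 1 of 8 was tested and did not pass, and for dendritic cells 1 of 6. Of 5 megakaryocyte markers 3 were tested and 0 passed by limma. The 2 at unadjusted p under 0.05, Pf4 and Ppbp, were lower in Baf60a KO, where 6.42% of all genes tested were lower. The sums over the 5 markers were 1007 to 1402 TPM in Baf60a KO and 1406 to 2166 TPM in WT libraries. They consisted mostly of Pf4, a platelet chemokine abundant in these libraries, at 1279 ± 185 TPM in Baf60a KO and 1822 ± 315 TPM in WT. The log2 fold change of Pf4 was -0.51 (limma adjusted p = 0.0824). Its groups did not overlap, though the highest Baf60a KO library (1398.39 TPM) was close to the lowest WT library (1399.59 TPM). Over all genes tested 3.96% were lower in Baf60a KO without overlap. In the same comparison 5 of 11 macrophage markers rose, among them C1qa, C1qb and C1qc. Among stromal markers 4 of 8 tested rose, among them Thy1, Pdgfrb and Col1a1. In either list 0 fell, and over all genes tested 4.4% rose. Without Baf60a KO replicate 4 the calls of C1qb, C1qc and Col1a1 were lost, and that of C1qc also without Baf60a KO replicate 3, with adjusted p up to 0.0586 for C1qb, 0.0680 for C1qc and 0.0573 for Col1a1 over all alternatives.

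Among 21 other granule and effector genes, 13 were tested, of which 3 rose, 1 fell and 9 did not pass. Their median log2 fold change was 0.081. Over all genes tested, 4.4% rose and 1.21% fell. The genes that rose were Lyz1, Itgam and Itgb2. Itgam, the alpha chain of the integrin Mac-1 that neutrophils and macrophages both carry, averaged 77.0 ± 5.96 TPM in Baf60a KO and 56.5 ± 6.56 TPM in WT (log2 fold change 0.44, limma adjusted p = 0.0285), and Itgb2, its beta chain, 230 ± 7.65 TPM in Baf60a KO and 195 ± 15.0 TPM in WT (0.24, adjusted p = 0.0467). The gene that fell was Lyz2, lysozyme of macrophages and neutrophils, at 1927 ± 110 TPM in Baf60a KO and 3993 ± 248 TPM in WT (log2 fold change -1.05, limma adjusted p = 0.000195). The Baf60a KO mean of Lyz2 was 0.483 of that in WT. The sources used here name no Cre driver and do not say whether the Lyz2 gene itself was altered, and this was not tested. Lyz1, its near-identical neighbour, averaged 7.38 ± 0.792 TPM in Baf60a KO and 2.23 ± 0.190 TPM in WT, and reads may be shared between both lysozymes. Bpi was listed at 0 in every library.

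Mmp8, neutrophil collagenase, and Pglyrp1, a peptidoglycan-binding granule protein, were low and were looked at after their values were seen. Mmp8 had 1.86, 1.44, 1.5 and 1.93 TPM in Baf60a KO and 2.47, 2.85, 2.28 and 2.17 TPM in WT replicates 1 to 4. Pglyrp1 had 1.27, 1.33, 0.86 and 0.92 TPM in Baf60a KO and 1.77, 1.37, 1.34 and 1.86 TPM in WT replicates 1 to 4. For both genes every Baf60a KO library was below every WT library, and neither passed (log2 fold change -0.36 and -0.30, limma adjusted p = 0.0757 and 0.176). For Pglyrp1 the highest Baf60a KO library (1.33 TPM) was close to the lowest WT library (1.34 TPM). Lyz2, Mmp8 and Pglyrp1 are the 3 genes of the 13 tested that were lower without overlap, and 3 others were higher without overlap. Over all genes tested, 3.96% were lower and 11.9% higher in Baf60a KO without overlap. The groups overlapped for Hp, Chil3 and Mmp9 (log2 fold change -0.060, -0.089 and -0.13). They also overlapped for Padi4, Adam8, Anxa1 and Alpl (log2 fold change 0.081, 0.11, 0.094 and 0.18). Itgam kept its call only without WT replicate 1 or WT replicate 3 among the 8 fits that left out 1 library (adjusted p up to 0.0885), and Itgb2 lost its call in 7 (up to 0.127).

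Among the factors of the granulocyte lineage, Cebpa rose, and Cebpe, Gfi1, Myb and Lef1 were too low to be tested. Cebpe was at 0.348 ± 0.0911 TPM in Baf60a KO and 0.355 ± 0.189 TPM in WT, and Gfi1 at 0.242 ± 0.155 TPM in Baf60a KO and 0.46 ± 0.170 TPM in WT, both below the filter. Of 15 granulocyte lineage factors 11 were tested, of which 1 rose and 0 fell, where 4.4% of all genes tested rose. Cebpa, which commits progenitors to the myeloid lineage, averaged 66.8 ± 2.96 TPM in Baf60a KO and 53.5 ± 5.69 TPM in WT (log2 fold change 0.32, limma adjusted p = 0.0452), a call kept only without WT replicate 1 among the 8 fits that left out 1 library (adjusted p up to 0.127 without Baf60a KO replicate 4). Cebpb was at 164 ± 13.3 TPM in Baf60a KO and 173 ± 22.8 TPM in WT, and Spi1, the gene of PU.1, at 133 ± 7.54 TPM in Baf60a KO and 129 ± 12.4 TPM in WT. Smarcd2 was at 39.1 ± 1.94 TPM in Baf60a KO and 36.2 ± 1.70 TPM in WT (adjusted p = 0.269), and Smarcd3, the third paralog, at 9.81 ± 0.545 TPM in Baf60a KO and 8.68 ± 0.588 TPM in WT (adjusted p = 0.189).

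Genes that build, release or restrain granules did not pass. Of 17 such genes tested, 0 rose and 0 fell by limma, and the 1 gene at unadjusted p under 0.05, the granule membrane tetraspanin Cd63, was higher without overlap, at 1485 ± 38.7 TPM in Baf60a KO and 1343 ± 33.8 TPM in WT (log2 fold change 0.14, adjusted p = 0.0533). Vamp8, a fusion protein of secretion, was at 207 ± 11.4 TPM in Baf60a KO and 208 ± 7.93 TPM in WT. Of 12 receptors of granule proteins 9 were tested, and 0 passed by limma. The 4 at unadjusted p under 0.05 split in direction. Cd36 and Ager were lower in Baf60a KO (log2 fold change -0.29 and -0.27), and Lrp1 and Tlr4 were higher (0.22 and 0.23). At that threshold 6.42% of all genes tested were lower, and the share that was higher was not computed. Cd36, which can bind calprotectin, was at 1065 ± 135 TPM in Baf60a KO and 1306 ± 176 TPM in WT (adjusted p = 0.195), and Lrp1 at 134 ± 15.7 TPM in Baf60a KO and 114 ± 5.49 TPM in WT (adjusted p = 0.153).

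Several other S100 genes rose in Baf60a KO. Of 15 genes on the list, which includes the binding protein gene S100pbp, 8 were tested. Of these 5 rose, 0 fell and 3 did not pass, where 4.4% of all genes tested rose and 1.21% fell. The median log2 fold change of the 8 was 0.25, beside 0.027 for all genes tested. S100a1, which modulates calcium handling, had 252.09, 243.96, 289.3 and 260.2 TPM in Baf60a KO and 195.53, 182.94, 189.89 and 177.35 TPM in WT replicates 1 to 4 (log2 fold change 0.48, SE 0.058, limma adjusted p = 0.00503). S100a4, a myosin-binding protein of motile cells, had 405.15, 363.81, 445.11 and 404.82 TPM in Baf60a KO and 319.48, 305.24, 302.63 and 257.47 TPM in WT replicates 1 to 4 (log2 fold change 0.45, adjusted p = 0.0212). S100a13 (0.25, adjusted p = 0.0276), S100a16 (0.25, adjusted p = 0.0394) and S100a10 (0.23, adjusted p = 0.0417) were the others that rose.

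Baf60a KO replicate 3, the lowest library for S100a8 and S100a9, was the highest for S100a1 and S100a4. Of 10 other S100 genes within 1 Mb of S100a8 on chromosome 3, 5 were tested. Of these 4 rose and 0 fell, where 4.4% of all genes tested rose and 1.21% fell. Whether S100a8 or S100a9 differed in response from these genes was not tested. The stromal markers, of which 4 of 8 rose, moved in the same direction, and their part in the S100 rises was not tested. S100a1 kept its call under all 19 alternatives, whereas S100a4 lost it in 6 (adjusted p up to 0.0734), S100a13 in 7 (up to 0.0969), S100a16 in 12 (up to 0.116) and S100a10 in 14 (up to 0.114).

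**Figure D5:**
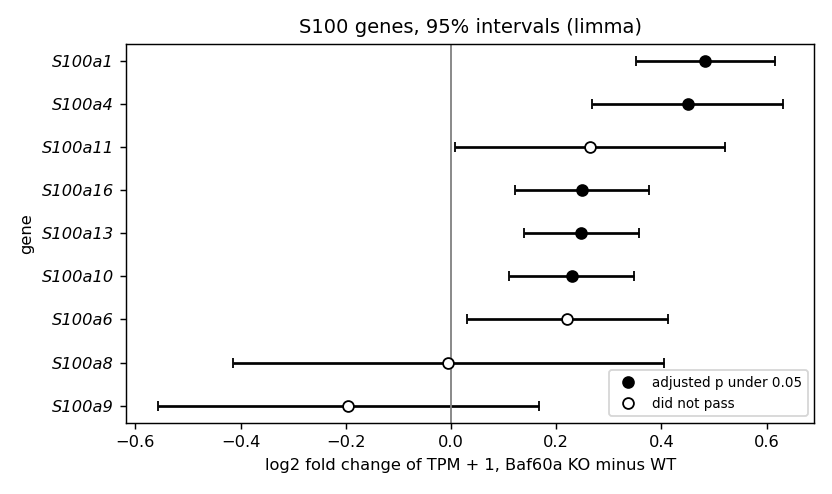
Log2 fold change of TPM + 1, Baf60a KO minus WT, with 95% limma intervals for the 9 S100 genes tested; filled points passed adjusted p under 0.05. S100a1 and S100a4 are highest at 0.48 and 0.45, and S100a8 and S100a9 are lowest at -0.0052 and -0.19.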

How the data were processed

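RNA of 8 libraries was profiled, 4 Baf60a KO and 4 WT, grouped by their titles. Per the labels' protocols, the NEBNext Ultra RNA kit was used and 51 bp pairs were read, with a stated mean of 30000000 pairs over samples. The tools were bcl2fastq and Salmon 1.2.0, with build mm10, per the submitters' processing notes; the annotation is not given in the sources used here. Values in the deposited file are TPM, the unit being read from the values, since each library summed to 1000000 within rounding. TPM keeps no depth, so no counting interval or detection limit can be given, and any large change moves all other values.

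Symbols were matched by Ensembl identifier (55154 of 55421), and coordinates came from GENCODE M21, on the assembly of mm10. No 2 columns were identical. A gene had to exceed 1 TPM in 4 libraries to be analysed, as log2(TPM + 1), which understates changes of low genes, with limma 3.58.1 in R 4.3.3 (a trended prior variance, no covariates, Benjamini-Hochberg adjustment), and "rose" and "fell" mean adjusted p under 0.05. Exact permutation tests used all 70 regroupings, two-sided. The limma fit was also run on simulated data, without the filter and with noise drawn independently for each gene. That setting does not cover variation shared between genes, and its outcome is not given here. The members and the 18 other gene lists were chosen with earlier results of these data known. Named genes are the members, the Smarcd genes, up to 3 called members of each list by adjusted p, or else the 2 most abundant, markers at 0 throughout, and the 5 genes most like S100a8; others are named as chosen later or to complete a count. One gene that this rule names is not reported here. Alternatives were the pseudocount, the filter, the variance model, library weights, the replicate number as a block, 3 scalings and leaving out libraries. No count-based alternative was run, since TPM hold no counts.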

Additional observations from a re-analysis of the deposited data

Results flagged for a closer look

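In 112 groups of 4 libraries, 6 had a library far from the other 3 by Dixon's test, which chance gives in about 1 group in 20, and none of the 6 involved a granule member or a sum over members. Plac8, a monocyte marker, was at 70.61 TPM in Baf60a KO replicate 3, where the next highest Baf60a KO library had 44.5 TPM. Pf4 was at 1002.44 TPM in the same library, where the next lowest had 1355.53 TPM. Vpreb1, a B cell precursor gene, was at 0.14 TPM in Baf60a KO replicate 3 (next 0.41 TPM) and at 1.17 TPM in WT replicate 1 (next 0.14 TPM). C1qa was at 233.65 TPM in WT replicate 1 (next 206.61 TPM), and Cd79b was at 1.47 TPM in WT replicate 4 (next 2.66 TPM). Of these, 3 flags fall on Baf60a KO replicate 3, the library that was lowest for 8 of the 10 granule members.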

How the results depend on the processing

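The count of members that fell was 0 under 18 of 19 alternatives and 2 (Ngp and Lcn2) with TPM rescaled over protein-coding genes, and the count that rose was 0 under all 19. Ngp ranged from -0.55 to -0.35 and Lcn2 from -0.55 to -0.33 in log2 fold change with 1 library left out. S100a8 turned positive with array weights (0.036) and ranged from -0.12 to 0.14 with 1 library left out. Prtn3 ranged from -0.0024 to 0.18 with 1 library left out and was negative without Baf60a KO replicate 4. The summed secondary granule ratio, Baf60a KO over WT, stayed between 0.678 and 0.786. No value could be had for the azurophil sum or the sum over all 10 members under quantile normalization, which used genes past the filter. Over all genes, 613 rose and 169 fell. This split was 518 and 403 with median-of-ratios scaling, 440 and 254 with quantile normalization, 845 and 484 over protein-coding genes, 292 and 72 with no filter and 201 and 171 without WT replicates 3 and 4. With 1 library left out, rises ran from 120 (without Baf60a KO replicate 4) to 532 and falls from 36 (without the same library) to 235; both counts stayed within 1.5 times those over all libraries only without WT replicate 1 or WT replicate 3. The cause was not tested. The replicate number as a block gave 146 rises and 63 falls over all genes and 0 calls among members; the deviations of same-numbered libraries from their group means correlated with r of -0.11, 0.012, 0.0079 and -0.016, so the numbers were not treated as pairs. Without a read depth for each library, values under 1 TPM cannot be given a precision.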
